A study of Gallus gallus and Anas platyrhynchos and Coturnix japonica with 11 samples.

Results

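The libraries described here are the 4 duck libraries of a study of miRNAs in the embryonic face of birds, out of 11 libraries from 10 biological samples of duck, chicken and quail. Duck (Anas platyrhynchos) embryos at Hamburger-Hamilton stage HH25, a later stage at which the beak has begun to take the form of its species, were compared with embryos at HH20, an earlier stage at which the faces of the birds still look alike. The tissue was the mesenchyme of the frontonasal prominence, the part of the face between the nasal pits that forms the upper beak and that is built from neural crest cells. The eggs were of domestic stock from a commercial farm, the embryos were untreated, and their sex was not given in the sources used here. At each stage a first biological sample (BS1) pooled 40 embryos and a second (BS2) pooled 5 embryos, so that each stage had 2 samples. The members are all 186 miRNAs of the deposited tables, in these 4 duck samples, and the stage change was taken separately within BS1 and within BS2.

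A miRNA is a short RNA that pairs with messenger RNAs, mostly through its bases 2 to 8 (the seed), and lowers the output of those messengers, so miRNAs with the same seed share most of their targets. The hairpin from which a miRNA is cut yields a strand from each of its arms, and the strand that is usually less abundant is marked with an asterisk. Among the best known stage-dependent miRNAs of animals are the let-7 family, which accumulates as embryonic cells differentiate, and the cluster of miR-302 and miR-367, which marks pluripotent and early embryonic cells.

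The mature sequences below are those of the miRNAs that met the 2-fold criterion in both duck sample pairs, with the partner strands miR-2954 and miR-460 added so that both strands of those hairpins can be compared. They are shown as deposited, 5′ to 3′, with the seed in capitals, and they are the chicken or human sequences against which the duck reads were counted.
let-7d: aGAGGUAGuggguugcauagu
let-7f: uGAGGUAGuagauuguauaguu
let-7g: uGAGGUAGuaguuuguacagu
let-7i: uGAGGUAGuaguuugugcugu
miR-184: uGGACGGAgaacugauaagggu
miR-378: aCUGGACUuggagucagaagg
miR-302b: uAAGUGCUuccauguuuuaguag
miR-302c: uAAGUGCUuccauguuucagugg
miR-302b*: aCUUUAACauggaggugcuuucu
miR-7: uGGAAGACuagugauuuuguug
miR-2954*: gCUGAGAGggcuuggggagagga
miR-2954: cAUCCCCAuuccacuccuagca
miR-460a*: cACAGCGCauacaauguggauu
miR-460: cCUGCAUUguacacacugugug
The let-7 members share one seed, and miR-302b and miR-302c share another and differ at 2 positions in all. Reads of such close relatives can be assigned to the wrong member, which applies to let-7f, let-7g, let-7i, miR-302b and miR-302c among those listed.

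The HH25 libraries held 3178161 (BS1) and 10894243 reads (BS2), and the HH20 libraries 3372762 (BS1) and 9261159 reads (BS2). Levels are given in PMMR, reads scaled to 1000000 reads of the library after adapter removal. The 186 miRNAs took 85.1% and 76.7% of the reads at HH25, against 76.0% and 70.0% at HH20. The fewest reads of any miRNA were 2, in BS1 at HH25, where 2 miRNAs had 3 reads or fewer, and 159 to 166 miRNAs per library were above 15 PMMR. The ratio of HH25 to HH20 had a median over the 186 miRNAs of 0.01 in BS1 and -0.01 in BS2 on the log2 scale. The mesenchymal strand miR-199*, at 9007 and 7883 PMMR at HH25 and 5740 and 3724 PMMR at HH20, was present in all 4 libraries, while the muscle pair miR-1a and miR-1b together reached 201 to 297 PMMR at HH25 and 147 to 393 PMMR at HH20.

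Between HH25 and HH20, let-7g, let-7i and let-7f rose and miR-302b, miR-302b*, miR-302c, miR-2954* and miR-460a* fell. These were 8 of 186 miRNAs (4.3%) past an adjusted p of 0.05 by limma on log2(PMMR + 1) over the 4 duck samples, 3 higher (1.61%) and 5 lower (2.69%) at HH25. Unadjusted, 19 of 186 (10.2%) had a p under 0.05, 10 higher (5.38%) and 9 lower (4.84%). The fitted changes ranged from 1.68 (let-7f) to 2.63 (let-7i) upward and from -2.25 (miR-460a*) to -2.99 (miR-302b*) downward, and every one of the 8 also met the 2-fold criterion in BS1 and in BS2. None of the 8 remained past the threshold in 3 of the alternative fits: without an intensity trend (smallest adjusted p 0.0565), scaled to the reads on miRNAs other than miR-143 (0.0615), and with the chicken samples in the same fit (0.238). With every library centred on its median the fit called 9 miRNAs, 5 higher and 4 lower, while without BS2 at HH20 it called 2, miR-2954* and miR-460a*, and without BS1 at HH20 it called 13.

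Taken pair by pair, the samples gave more changes than they shared. The criterion was a 2-fold change at a level above 15 PMMR at either stage of the pair, and 46 of 186 miRNAs met it in BS1 (24.7%), 21 higher (11.3%) and 25 lower (13.4%) at HH25. In BS2 it was met by 52 (28%), 29 higher (15.6%) and 23 lower (12.4%), and after median-centring by 53, of which 38 were higher and 15 lower. The change was 2-fold in the same direction in both pairs for 12 miRNAs (6.45%), 6 higher (3.23%) and 6 lower (3.23%), or for 15, 9 higher and 6 lower, after median-centring. It was 2-fold in opposite directions for 3 (1.61%), and 31 miRNAs met the criterion in BS1 alone and 37 in BS2 alone. Without regard to size, 111 of 186 miRNAs (59.7%) moved in the same direction in both pairs, 56 higher (30.1%) and 55 lower (29.6%). The correlation of the BS1 and BS2 changes across the 186 miRNAs, which are not independent of each other, was 0.36 (Pearson) and 0.27 (Spearman). Within a stage, BS2 differed from BS1 by 2-fold or more for 35 miRNAs at HH25 and 54 at HH20.

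**Figure D1:**
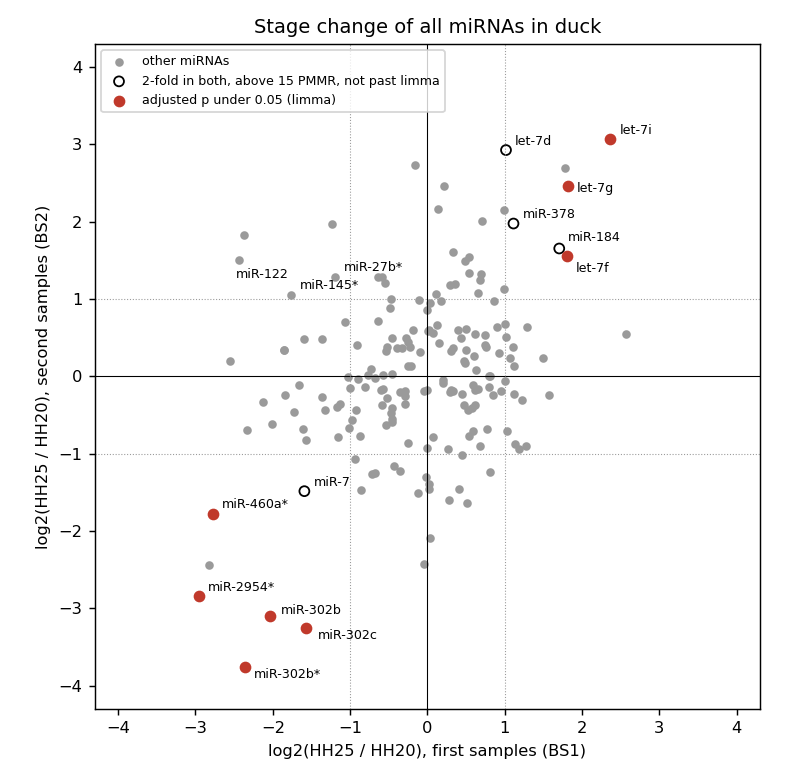
Stage change in duck for 186 miRNAs, as log2(HH25/HH20) in the first samples (x axis) and in the second samples (y axis), one point per miRNA; dotted lines mark a 2-fold change. The 8 miRNAs past limma's threshold and the 4 others with a 2-fold change alike in both pairs lie in the upper right and lower left corners, and miR-122, miR-145* and miR-27b* lie in the upper left.

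The let-7 family leaned upward at HH25, with 3 of its 10 members past the test, beside 3 of 186 (1.61%) higher over all miRNAs. All 10 of its members were higher at HH25 in BS1 and 9 of 10 in BS2, none passed the test downward, and the median log2 change was 1.29 in BS1 and 2.16 in BS2, beside 0.01 and -0.01 over all 186 miRNAs. After median-centring all 10 were higher in both pairs, and when scaled to the miRNAs other than miR-143 8 were, beside 76 and 51 of all 186 miRNAs. The levels of the 2 stages did not overlap for 7 of the 10, all higher at HH25, beside 45 of 186 (24.2%) over all miRNAs. Of these 7, let-7k hardly differed in BS2 (log2 change 0.00), and let-7a* had 5 reads in BS1 at HH20. let-7g stood at 3279 (BS1) and 1948 PMMR (BS2) at HH25, against 930 and 354 PMMR at HH20. Both HH25 samples were above both HH20 samples, by 3.53-fold in BS1 and 5.50-fold in BS2, and the fitted log2 change was 2.14 ± 0.50 (SE; limma adjusted p = 0.0141). let-7f, the most abundant member, stood at 45741 and 19169 PMMR at HH25, against 13097 and 6518 PMMR at HH20. Again the stages did not overlap, with 3.49-fold and 2.94-fold higher levels at HH25 and a fitted log2 change of 1.68 ± 0.47 (SE; limma adjusted p = 0.0421). let-7i was far rarer, at 116 and 79.6 PMMR at HH25 against 22.5 and 9.50 PMMR at HH20. By the fit it showed the largest rise of the family, 5.15-fold in BS1 and 8.38-fold in BS2, with a fitted log2 change of 2.63 ± 0.69 (SE; limma adjusted p = 0.0295).

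The members of the let-7 family that did not pass the test mostly leaned the same way but differed between the pairs. let-7a was at 30817 and 18529 PMMR at HH25 and at 15525 and 4152 PMMR at HH20, and its stages did not overlap (fitted log2 change 1.57 ± 0.51 SE, limma adjusted p = 0.101). let-7c was at 25975 and 21032 PMMR at HH25 and at 23617 and 4702 PMMR at HH20. Its log2 change was 0.14 in BS1 and 2.16 in BS2, so that the difference between stages lay almost wholly in the low HH20 sample of BS2. let-7d met the 2-fold criterion in both pairs on few reads, 82 and 170 at HH25 against 43 and 19 at HH20. Its ratio of 2.02 in BS1 had a 95% counting interval of 1.38 to 3.00, its ratio of 7.61 in BS2 one of 4.72 to 12.9, and its fit did not pass (limma adjusted p = 0.421). let-7b had log2 changes of 0.21 and 2.46, and let-7k, which is within 2 mismatches of let-7f and let-7a, 0.80 and 0.00. Of the asterisk strands, let-7a* was at 8.81 and 11.7 PMMR at HH25 and at 1.48 and 7.99 PMMR at HH20, and let-7c* changed by 1.57 in BS1 and -0.24 in BS2.

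Summed over the 8 members with the seed GAGGUAG, the level was 106785 (BS1) and 61505 PMMR (BS2) at HH25, against 53690 and 16454 PMMR at HH20, or 1.99-fold and 3.74-fold higher. Both HH25 sums were above both HH20 sums, and with 2 samples against 2 an exact two-sided permutation test cannot give a p below 0.333. In the make-up of that sum, let-7g and let-7i, which were called above, took small shares that were larger at HH25. As both had risen more than the sum, this is no separate result. let-7g made up 3.07% and 3.17% of it at HH25, against 1.73% and 2.15% at HH20, and let-7i 0.11% and 0.13% at HH25, against 0.04% and 0.06% at HH20. The shares of let-7f (42.8% and 31.2% at HH25, 24.4% and 39.6% at HH20) and let-7c (24.3% and 34.2% at HH25, 44.0% and 28.6% at HH20) overlapped between the stages. Those of let-7a (28.9% and 30.1% at HH25, 28.9% and 25.2% at HH20) overlapped too.

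The cluster of miR-302 and miR-367 leaned the other way. All 4 of its members were lower at HH25 in both pairs with no overlap between stages, beside 40 of 186 (21.5%) lower without overlap over all miRNAs. The test was passed by 3 of the 4, beside 5 of 186 (2.69%) lower over all miRNAs. The cluster's median log2 change was -2.20 in BS1 and -3.18 in BS2. miR-302b was at 66.4 (BS1) and 68.3 PMMR (BS2) at HH25, against 272 and 586 PMMR at HH20, 4.10-fold and 8.58-fold lower (fitted log2 change -2.55 ± 0.57 SE, limma adjusted p = 0.0139). miR-302c, with the same seed, was at 59.5 and 47.0 PMMR at HH25, against 177 and 447 PMMR at HH20, 2.98-fold and 9.52-fold lower (-2.39 ± 0.61 SE, limma adjusted p = 0.0254). The partner strand miR-302b* was at 16.7 and 18.2 PMMR at HH25, against 85.7 and 246 PMMR at HH20, 5.14-fold and 13.5-fold lower (-2.99 ± 0.68 SE, limma adjusted p = 0.0139). For each of these 3 miRNAs the HH25 levels of the 2 samples lay close together, and at HH20 BS2 was above BS1 by 1.11 to 1.52 on the log2 scale. miR-367 was the rarest miRNA in duck, with 2 and 13 reads at HH25 and 15 and 60 reads at HH20 (0.63 and 1.19 PMMR at HH25, 4.45 and 6.48 PMMR at HH20). Its ratio in BS1, 0.14, had a 95% counting interval of 0.02 to 0.61, and it did not pass the test (limma adjusted p = 0.421). In the chicken RefSeq annotation the genes of miR-302b, miR-302c and miR-367 are neighbours, each within 10000 bases of the next.

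**Figure D2:**
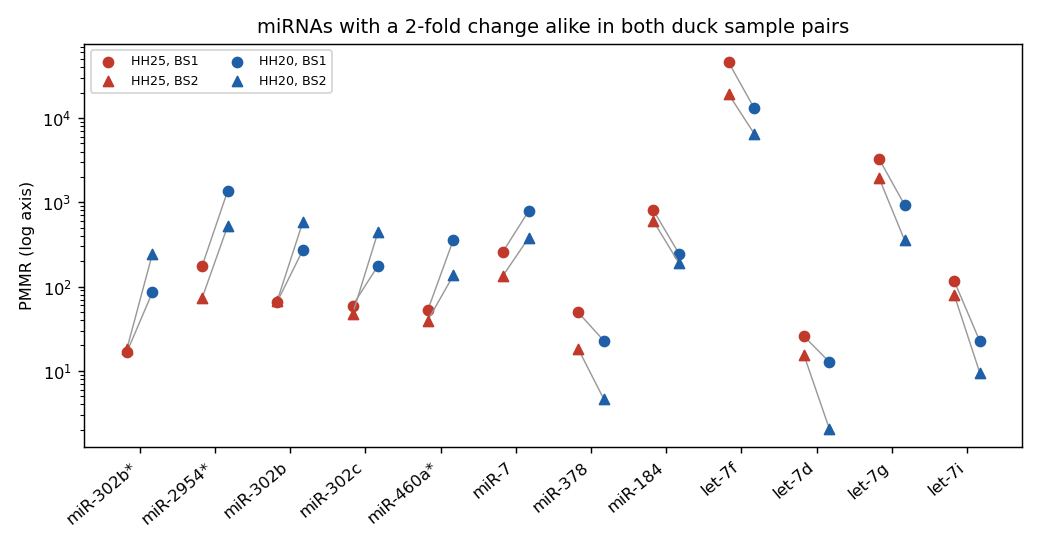
Level in PMMR (log axis) of the 12 miRNAs with a 2-fold change alike in both duck pairs; for each miRNA the HH25 samples (red) stand left of the HH20 samples (blue), circles are BS1, triangles BS2, and a line joins the samples of a pair. Both lines of each miRNA run the same way, and the stages overlap for miR-378 alone.

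miR-2954 is a miRNA known only from birds, and it is more abundant in males in zebra finch and chicken. Its asterisk strand gave the smallest p of all 186 miRNAs. miR-2954* was at 175 (BS1) and 72.9 PMMR (BS2) at HH25, against 1362 and 523 PMMR at HH20. The ratio was almost equal in the pairs, 7.79-fold and 7.17-fold lower at HH25, although BS1 was above BS2 at either stage (fitted log2 change -2.89 ± 0.58 SE, limma adjusted p = 0.00937). Without BS1 at HH20 the adjusted p was 0.0550. The main strand miR-2954 was at 2554 and 2301 PMMR at HH25 and at 4869 and 4840 PMMR at HH20. Here too the stages did not overlap, but its log2 changes of -0.93 in BS1 and -1.07 in BS2 did not pass (limma adjusted p = 0.357). The other 4 miRNAs of the list of miRNAs known from birds did not share this: miR-2131 changed by 1.01 in BS1 and -0.06 in BS2. Of the 6 members of that list 1 passed the test, downward, beside 5 of 186 (2.69%) lower over all miRNAs.

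miR-460a* was at 52.2 (BS1) and 39.6 PMMR (BS2) at HH25, against 358 and 136 PMMR at HH20. It fell 6.85-fold in BS1 and 3.43-fold in BS2 without overlap (fitted log2 change -2.25 ± 0.62 SE, limma adjusted p = 0.0417), and it lost the call after median-centring. Its partner miR-460 was at 47.5 and 49.6 PMMR at HH25 and at 119 and 66.8 PMMR at HH20, lower in both pairs and not past the test (limma adjusted p = 0.603).

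Strands were paired by name into 43 pairs, called hairpins here, and the ratio of the strands was compared between the stages. Some mature strands, such as let-7a, miR-181a and miR-19b, match several genes in the chicken RefSeq annotation. Their ratios can therefore mix the products of different hairpins. The ratio moved 2-fold or more in the same direction in both pairs for 3 hairpins, miR-2954, miR-460 and miR-15b, and in opposite directions for 3 others, let-7a, let-7c and miR-145. These were counted without a test. miR-2954 was 14.6 (BS1) and 31.6 times (BS2) as abundant as miR-2954* at HH25, against 3.57 and 9.26 times at HH20. miR-460 was 0.91 and 1.25 times as abundant as miR-460a* at HH25, against 0.33 and 0.49 times at HH20. Thus the asterisk strand was the more abundant of this pair at HH20 in both samples. miR-15b, of the miR-15/16 family that restrains the cell cycle, was 52.4 and 23.0 times as abundant as miR-15b* at HH25, against 24.4 and 9.29 times at HH20. In that hairpin neither strand passed the test, and miR-15b* had 62 and 266 reads at HH25 and 66 and 430 reads at HH20. The ratio of miR-302b to its partner shifted by 0.33 and 0.66 on the log2 scale, and that of miR-140-5p to miR-140-3p by 0.01 and 0.08. Of the 43 asterisk strands in the tables, 3 passed the test, all downward, beside 5 of 186 (2.69%) lower over all miRNAs. Of these strands 15 were lower in both pairs and 6 higher, beside 55 and 56 of all 186 miRNAs. After median-centring 8 of them were lower in both and 13 higher, beside 36 and 76 of all 186.

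**Figure D3:**
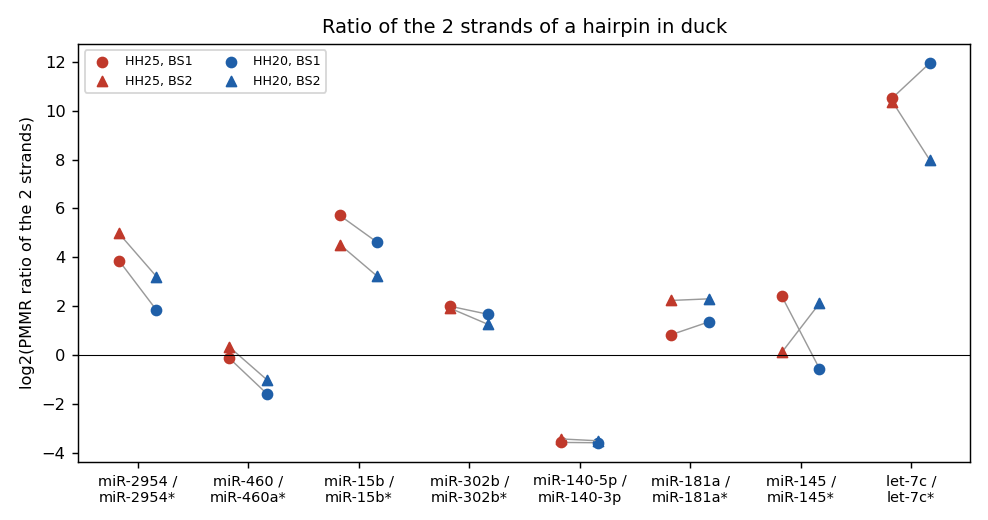
Log2 ratio of the PMMR of the strands of 8 hairpins, paired by name, in the 4 duck libraries, HH25 (red) left of HH20 (blue), circles BS1 and triangles BS2, with a line joining the samples of a pair. The ratio was 2-fold or more higher at HH25 in both pairs for miR-2954, miR-460 and miR-15b, and higher by less for miR-302b. It changed by less than 0.1 for miR-140, was lower at HH25 in both pairs for miR-181a, and ran in opposite directions for miR-145 and let-7c.

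Of the 12 miRNAs that met the 2-fold criterion in both pairs, 4 did not pass limma's threshold: miR-184, miR-7, miR-378 and let-7d. miR-184, a miRNA known from the lens and cornea of mouse, was at 802 (BS1) and 598 PMMR (BS2) at HH25 and at 246 and 190 PMMR at HH20. The ratios of 3.26 and 3.15 hardly differed between pairs and the stages did not overlap (fitted log2 change 1.68 ± 0.50 SE, limma adjusted p = 0.0559). With the sample number as a replicate block the limma adjusted p was 0.0169 at almost the same SE (0.49). The smaller p of miR-184 therefore does not show a smaller spread within pairs. miR-7, known from neuroendocrine cells, was at 259 and 134 PMMR at HH25 and at 781 and 376 PMMR at HH20. It was 3.01-fold and 2.80-fold lower (-1.53 ± 0.54 SE, limma adjusted p = 0.170). With the replicate block its limma adjusted p was 0.0480 at an SE of 0.50. miR-378 was at 49.4 and 18.3 PMMR at HH25 and at 22.8 and 4.64 PMMR at HH20, so that BS2 at HH25 was below BS1 at HH20 although both pairs gave a 2-fold difference (limma adjusted p = 0.520). Nearest inside the 2-fold limit in both pairs were let-7d, miR-378 and miR-7, whose smaller log2 changes were 1.02, 1.11 and -1.48. Nearest outside it were let-7a (0.99), miR-218 (0.99) and miR-2954 (-0.93). miR-10b, a miRNA of the Hox clusters, moved 2-fold in both pairs but stayed near the detection level, at 13.2 and 16.1 PMMR at HH25 and at 3.85 and 2.48 PMMR at HH20.

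The miR-17-92 and miR-106a-363 clusters, known to promote proliferation and required for normal palate formation in mouse, held a large share of the miRNA reads. Of their 19 mature strands none passed the test in either direction. No member was higher at HH25 in both pairs, 10 were lower in both, and 9 of those did not overlap between stages, beside 40 of 186 (21.5%) over all miRNAs. After median-centring 6 were lower in both and 3 higher, beside 36 and 76 of all 186 miRNAs. Their summed level was 137163 (BS1) and 144395 PMMR (BS2) at HH25, against 185922 and 167480 PMMR at HH20, with both HH25 sums below both HH20 sums. miR-18b was at 6180 and 7043 PMMR at HH25 and at 12143 and 10384 PMMR at HH20 (limma adjusted p = 0.479). miR-92 was at 8608 and 6673 PMMR at HH25 and at 11031 and 15575 PMMR at HH20, also without overlap. miR-363, the most abundant strand of these clusters, was at 26902 and 34717 PMMR at HH25 and at 53741 and 38399 PMMR at HH20, where BS1 was the high sample. The asterisk strands miR-18a*, miR-18b* and miR-19b* had log2 changes of -2.09, -2.42 and -1.45 in BS2, and of 0.04, -0.04 and 0.42 in BS1. The sequence of miR-18b* lies wholly within that of miR-18a*. Reads of these strands can thus be assigned to the wrong member, and their likeness is not independent.

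The miR-30 family, implicated in transitions between mesenchyme and epithelium, differed between the pairs. In BS1 all 10 members were higher at HH25, beside 94 of all 186 miRNAs, with a median log2 change of 0.74. In BS2 only 3 of 10 were, with a median of -0.26, and after median-centring 6 of 10. The 3 that were higher in both pairs were miR-30e, miR-30d and miR-30a-5p, and their stages did not overlap, a share of 3 of 10 beside 45 of 186 (24.2%) higher without overlap over all miRNAs. miR-30a-5p, the most abundant member, was at 22406 and 20119 PMMR at HH25 and at 11160 and 12594 PMMR at HH20 (fitted log2 change 0.84 ± 0.41 SE, limma adjusted p = 0.421). By contrast miR-30c was at 3377 and 2262 PMMR at HH25 and at 2113 and 4232 PMMR at HH20, and miR-30d* at 24.9 and 22.3 PMMR at HH25 and at 14.2 and 52.8 PMMR at HH20. In both, HH20 of BS2 was the highest of the 4 samples. Summed over the 5 members with the seed GUAAACA the level was 48899 and 51632 PMMR at HH25, against 29577 and 38428 PMMR at HH20, while the 3 members with the seed UUUCAGU summed to 16285 and 11862 PMMR at HH25, against 7287 and 14170 PMMR at HH20. No member of the family passed the test.

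**Figure D4:**
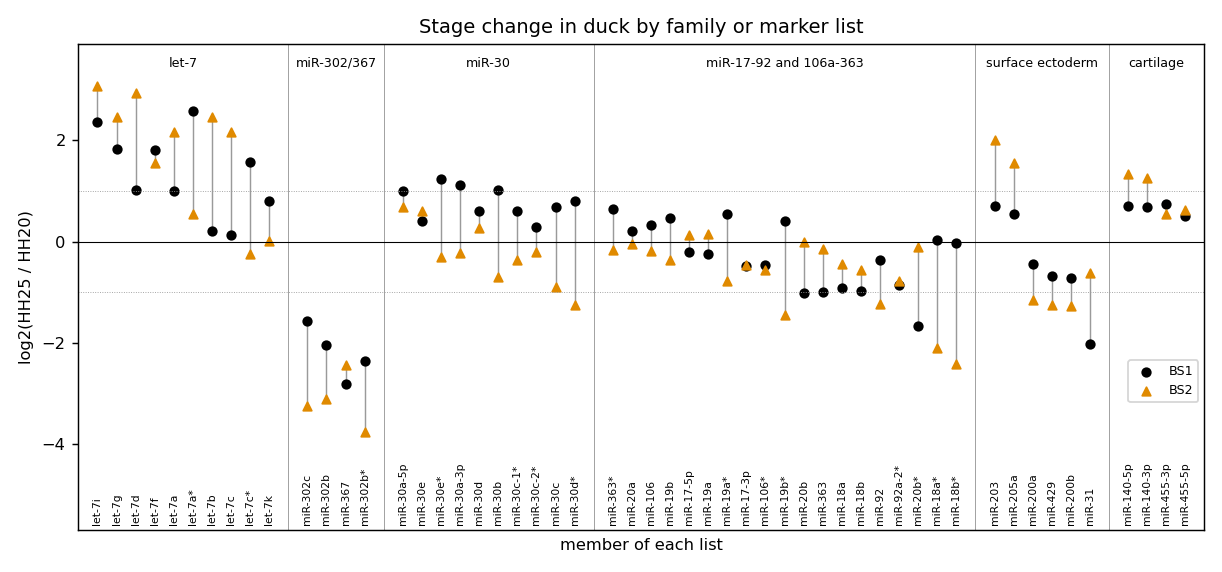
Log2(HH25/HH20) in duck of the members of 6 lists, ordered within a list by the mean of the pairs; circles are BS1, triangles BS2, a line joins the values of a miRNA, and dotted lines mark 2-fold. The let-7 members lie above 0 except let-7c* in BS2, the miR-302 and miR-367 values all lie below -1.5, and the miR-30 members are above 0 in BS1 and scattered around 0 in BS2.

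Cartilage, mesenchyme and smooth muscle miRNAs were among the abundant ones. The 4 strands of the cartilage list (miR-140 and miR-455, products of hairpins active in chondrocytes) were all higher at HH25 in both pairs without overlap between stages, beside 45 of 186 (24.2%) over all miRNAs, and none passed the test. miR-140-3p was at 24397 (BS1) and 39693 PMMR (BS2) at HH25 and at 15195 and 16723 PMMR at HH20, 1.61-fold and 2.37-fold higher (fitted log2 change 0.97 ± 0.42 SE, limma adjusted p = 0.417). miR-140-5p gave ratios of 1.62 and 2.50, and the rarer miR-455-3p and miR-455-5p ratios of 1.41 to 1.68. The mesenchymal pair miR-199 and miR-199* had a summed level of 12289 and 12888 PMMR at HH25, against 8638 and 6277 PMMR at HH20. miR-143, a smooth muscle miRNA, was the most abundant of all. It was at 112894 PMMR in BS1 at HH25, which was 13.3% of all miRNA reads of that library, and at 53521 PMMR in BS2 at HH25, against 40078 and 45335 PMMR at HH20 (limma adjusted p = 0.479). Both HH25 samples were above both HH20 samples, with log2 changes of 1.49 and 0.24. The other 3 strands of the smooth muscle list, miR-143*, miR-145 and miR-145*, each moved in opposite directions in the pairs.

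The 10 most abundant miRNAs, which together took 47.6% and 49.5% of the miRNA reads at HH25 and 54.0% and 55.0% at HH20, were miR-143, miR-146a, miR-146c, miR-363, miR-103, miR-16, miR-126, miR-21, miR-16c and miR-20b. None of them passed the test. miR-146a was at 30769 and 59004 PMMR at HH25 and at 57560 and 60226 PMMR at HH20, and miR-146c ran with it at 26167 and 46703 PMMR at HH25 and 45844 and 51278 PMMR at HH20. For both of these close relatives BS1 at HH25 was the lowest of the 4 samples and the others lay within a narrow range. miR-16 was at 44855 and 30370 PMMR at HH25 and at 31950 and 26935 PMMR at HH20, and miR-21 at 31810 and 29563 PMMR at HH25 and at 38879 and 33669 PMMR at HH20. miR-103 was higher at HH25 in BS1 and lower in BS2, with log2 changes of 0.58 and -0.41.

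Markers of tissues next to the dissected mesenchyme were measured in the same libraries. By the study's methods the surface ectoderm and the neuroectoderm of the forebrain had been taken off with dispase and needles before RNA was isolated. In bulk samples such as these, fewer cells of a type and less RNA per cell cannot be told apart. Of the 6 surface ectoderm markers none was at 0, and their summed level was 1555 (BS1) and 466 PMMR (BS2) at HH25, against 2293 and 718 PMMR at HH20, so that BS1 was well above BS2 at either stage. The miR-200 members, which keep epithelia epithelial, were lower at HH25 in both pairs. miR-200a was at 643 and 128 PMMR at HH25 and at 869 and 284 PMMR at HH20, miR-200b at 128 and 33.0 PMMR at HH25 and at 212 and 79.5 PMMR at HH20, and miR-429 at 408 and 98.6 PMMR at HH25 and at 651 and 234 PMMR at HH20. The stages of all 3 overlapped, and their genes neighbour each other in the chicken RefSeq annotation. miR-31 was likewise lower, at 93.8 and 48.5 PMMR at HH25 and at 378 and 74.5 PMMR at HH20. The epidermal miRNAs miR-203 and miR-205a stood the other way, miR-203 at 143 and 91.2 PMMR at HH25 and at 88.1 and 22.7 PMMR at HH20, and miR-205a at 139 and 67.0 PMMR at HH25 and at 95.2 and 23.0 PMMR at HH20. None of the 6 passed the test in either direction, beside 8 of 186 (4.3%) over all miRNAs. Of the 8 miRNAs past the test, 5 also stood higher in BS1 than in BS2 at each stage, let-7g, let-7f and let-7i, which rose, and miR-2954* and miR-460a*, which fell, beside 54 of 186 (29.0%) over all miRNAs. miR-184 and miR-7 did so too. The part of the ectoderm in those results was not tested.

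Among the other markers, the sensory organ cluster miR-183, miR-96 and miR-182 summed to 7398 (BS1) and 2773 PMMR (BS2) at HH25, against 7331 and 7499 PMMR at HH20, so that the low sample was BS2 at HH25 alone. Of these miR-96 was lower at HH25 in both pairs, at 62.6 and 30.4 PMMR against 113 and 83.9 PMMR at HH20. The 11 neural strands summed to 2232 and 1726 PMMR at HH25, against 2255 and 2254 PMMR at HH20. Of these 11 strands 1 was higher at HH25 in both pairs and 3 were lower, beside 56 and 55 of all 186 miRNAs. The 1 higher was miR-218, known from motor neurons and from the Slit genes, without overlap (850 and 652 PMMR at HH25, 428 and 298 PMMR at HH20; limma adjusted p = 0.421). The 3 lower included miR-7, whose levels are given above. The red blood cell strands summed to 2528 and 1942 PMMR at HH25 and to 2460 and 2192 PMMR at HH20, and the white blood cell strands to 217 and 389 PMMR at HH25 and to 477 and 691 PMMR at HH20. miR-142-3p, of white blood cells, was lower at HH25 without overlap, at 127 and 313 PMMR against 387 and 502 PMMR at HH20 (limma adjusted p = 0.421). The endothelial miR-126 was at 23690 and 36728 PMMR at HH25 and at 39285 and 34286 PMMR at HH20, in overlapping ranges. No marker of another tissue passed the test, beside 8 of 186 (4.3%) over all miRNAs. With the replicate block miR-7, of the neural list, did pass (limma adjusted p = 0.0480). The part of these tissues in the changes of let-7 and miR-302 was not tested.

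The 3 miRNAs that moved 2-fold in opposite directions were miR-122, miR-145* and miR-27b*, each lower at HH25 in BS1 and higher in BS2. miR-122, the liver miRNA, was at 3.78 (BS1) and 140 PMMR (BS2) at HH25 and at 20.5 and 49.5 PMMR at HH20. Its counting intervals did not meet, with a ratio of 0.09 to 0.34 in BS1 and of 2.55 to 3.15 in BS2. miR-145* was at 46.6 and 183 PMMR at HH25 and at 159 and 88.0 PMMR at HH20, and its main strand miR-145 ran against it, at 246 and 197 PMMR at HH25 and 108 and 380 PMMR at HH20. miR-27b* was at 40.0 and 98.3 PMMR at HH25 and at 91.3 and 40.2 PMMR at HH20. The other strands of the miR-23/27/24 clusters were higher at HH25 in both pairs, 5 of 6 members in all, beside 56 of 186 (30.1%) over all miRNAs. When scaled to the miRNAs other than miR-143, 4 of 6 were, beside 51 of all 186. The median log2 changes of these clusters were 0.14 and 0.56. Families whose pairs differed as a group were the family of miR-99a, miR-100 and miR-125b, with 1 of 7 members higher in BS1 and 7 of 7 in BS2, and miR-181, with 1 of 4 and 4 of 4. Over all miRNAs 94 of 186 were higher in BS1 and 93 in BS2. miR-100 was at 2853 and 5100 PMMR at HH25 and at 4184 and 2209 PMMR at HH20, and miR-181b at 1328 and 4556 PMMR at HH25 and at 3412 and 3248 PMMR at HH20. miR-221 and miR-222, whose known target is the cell cycle inhibitor p27, also split: miR-222 was at 1586 and 630 PMMR at HH25 and at 1322 and 1204 PMMR at HH20.

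Of the remaining families none had a member past the test. The miR-15/16 family had 4 of 6 members higher at HH25 in both pairs, beside 56 of 186 (30.1%) over all miRNAs. Among them was miR-15c at 687 and 455 PMMR at HH25 and 366 and 293 PMMR at HH20, without overlap. The family of miR-130, miR-301 and miR-454 was divided, with 5 of 9 members higher in both pairs and 3 lower, beside 56 and 55 of all 186. miR-192 and miR-215, which share a seed and are known from gut and kidney, were both higher in both pairs. miR-215 was at 47.5 and 61.5 PMMR at HH25 and at 26.1 and 31.4 PMMR at HH20, without overlap, while miR-192 differed more between samples than between stages, at 14.8 and 108 PMMR at HH25 and 11.6 and 47.1 PMMR at HH20. miR-34c, whose family acts downstream of p53, was at 772 and 422 PMMR at HH25 and at 530 and 167 PMMR at HH20, in overlapping ranges. miR-146b was lower in both pairs without overlap, at 1394 and 2752 PMMR at HH25 against 3041 and 3534 PMMR at HH20. miR-148b, with one of the smaller p values among those lower, was at 919 and 985 PMMR at HH25 and at 3284 and 1160 PMMR at HH20, so that its difference lay mostly in BS1 (limma adjusted p = 0.421).

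The study named 23 of the measured strands for stage in its text and listed others elsewhere. Some of the 23 were named for all the birds, as higher or as lower, and others for only some of them, so the list mixes directions. They were named on samples that include BS1 of duck, and so are not independent of it. Of the list 15 were higher at HH25 in BS1 and 11 in BS2, 9 were higher in both and 6 lower in both, beside 56 (30.1%) and 55 (29.6%) of all 186 miRNAs. After median-centring 16 were higher in BS2, 13 higher in both and 5 lower in both, beside 76 and 36 of all 186. Past the test were 3 higher, let-7f, let-7g and let-7i, and 3 lower, miR-302b, miR-302b* and miR-302c, beside 3 (1.61%) and 5 (2.69%) of all 186. Besides the let-7, miR-302 and miR-30 members, this list held miR-96 and miR-222, whose levels are given above, and 4 other strands. miR-129-5p was lower in both pairs by less than 0.4 on the log2 scale, miR-137 had log2 changes of -0.57 and -0.17, and miR-100* and miR-125b* were lower in BS1 and higher in BS2.

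To see where the duck changes differed from those of chicken, the stage change of duck minus that of chicken was fitted over 8 samples. It passed the threshold for 0 of 186 miRNAs (0%), and 1 had an unadjusted p under 0.05 (0.538%), miR-184. Over the same 8 samples the stage change of duck itself also gave 0 calls (smallest limma adjusted p 0.238). The 0 for the difference therefore cannot show that duck and chicken changed alike. In BS1 of chicken at HH25, 45 of the 186 miRNAs were 4-fold or more from the mean of the other samples, beside 3 to 13 in the other 9 samples. Leaving out that sample gave 0 calls. Leaving out BS2 of chicken at HH25 in its place gave 16, but that fit has the sample that stands apart as the only one of its group, with its spread taken from the other groups, so nothing is read from those calls. miR-184 was at 271 and 1890 PMMR at HH25 and at 1430 and 1897 PMMR at HH20 in chicken, where BS1 at HH25 was the low sample, and its difference of duck from chicken was 2.88 ± 1.16 (SE; limma adjusted p = 0.996). In quail, with 1 sample per stage, it was at 135 PMMR at HH25 and 67.2 PMMR at HH20. Of the 12 miRNAs that changed 2-fold alike in duck, 9 went the same way in both chicken pairs and 10 in quail, beside 68 (36.6%) and 124 (66.7%) of all 186 miRNAs by the sign of the mean duck change. For the let-7 and miR-302 members among the 12, the duck, chicken and quail values all had one sign. The exceptions were miR-184, miR-378 and miR-7 in BS1 of chicken and miR-378 and miR-460a* in quail, and miR-184 in BS2 of chicken was at -0.01. miR-460a* in quail was at 327 PMMR at HH25 and 277 PMMR at HH20, where duck had 52.2 and 39.6 PMMR at HH25 and 358 and 136 PMMR at HH20.

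**Figure D5:**
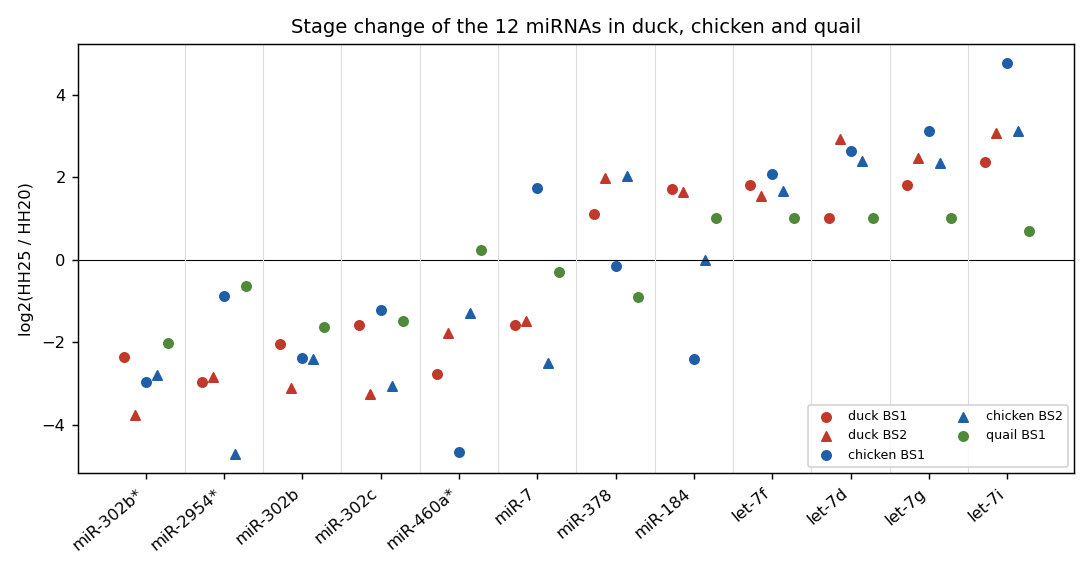
Log2(HH25/HH20) of the 12 miRNAs in the duck (red), chicken (blue) and quail (green) sample pairs, circles BS1 and triangles BS2. All 5 points lie on one side of 0 for the let-7 and miR-302 miRNAs and for miR-2954*, while miR-7, miR-378, miR-184 and miR-460a* have points on both sides.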

How the data were processed

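Small RNA of 4 duck samples was sequenced by the study after adapter ligation and size selection. The authors removed adapters, mapped reads to the chicken genome and to known miRNAs, and deposited for each library a signal, reads per 1000000 reads (PMMR), for 186 miRNAs above 15 PMMR in at least 1 sample, with the total reads as last row, which was left out here. PMMR times the total gave whole reads in 100% of values within 0.005 PMMR, the rounding of the deposited figures. The stage change was fitted on log2(PMMR + 1) with limma (version 3.58.1, under R 4.3.3), empirical Bayes with an intensity trend, over the 4 duck samples, with Benjamini-Hochberg adjustment over 186 miRNAs and a threshold of 0.05. The fit was also run on simulated data that followed its own model, which cannot show how it behaves where the samples depart from that model. Ratios carry no pseudocount, and their 95% intervals (exact, from binomial shares) cover counting error only. The mean of both runs of BS2 of chicken at HH25 was used as 1 sample. miRNAs were named where 2-fold alike in both pairs, among the 8 smallest p in each direction, 2-fold in opposite directions, among the 10 most abundant, at the 2-fold limit, or in fixed lists. These members and lists were chosen with earlier results of these data known, and features outside the rule that are named were chosen after their values were seen.

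The sample number is given by the labels, and by the study's methods it marks pools of 40 embryos (BS1) or 5 embryos (BS2) at both stages. The differences of BS2 from BS1 had a correlation of 0.25 between stages, so the numbers were taken as pairs in a second fit with a replicate block. Neighbouring genes were taken from the chicken RefSeq annotation (GRCg7b), where 168 of 186 miRNAs matched a gene. Library totals ranged from 3178161 to 10894243 reads. The alternatives covered the pseudocount, scaling, level filter, trend, block, reads in place of PMMR, the chicken samples and each left-out sample.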

Additional observations from a re-analysis of the deposited data

How the results depend on the processing

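The 8 calls of the duck fit numbered 8 with a pseudocount of 0.1 or 10 and with limma voom on the recovered reads, 7 of 163 with a mean of at least 15 PMMR, and 9 with median-centring, which moved the median fitted change by 0.21. The replicate block called 10, the same 8 with miR-184 and miR-7, and changed no other call; with median-centring as well it called 10, the same 8 with miR-184 and let-7a. There were 0 calls without the intensity trend (14 unadjusted), 0 when scaled to the miRNAs other than miR-143, an alternative chosen after seeing the data (18 unadjusted), and 0 with the chicken samples in the fit (9 unadjusted), but 9 once BS1 of chicken at HH25 was left out of that fit; the cause was not tested. Leaving out 1 sample, where the sample left at that stage is assumed to vary as those of the other stage do, gave 2 to 13 calls: 2 without BS2 at HH20, 6 without BS2 at HH25, 7 without BS1 at HH25 and 13 without BS1 at HH20. The calls of let-7g, miR-302b and miR-302b* were lost without BS2 at HH20 (limma adjusted p = 0.0904 to 0.291), that of miR-2954* without BS1 at HH20 (0.0550), those of miR-302c and let-7f in 2 of these 4 fits, without BS2 at HH20 and without BS2 (miR-302c) or BS1 (let-7f) at HH25 (highest 0.260 and 0.509), that of miR-460a* in 2, without BS1 at HH20 or BS2 at HH25 (highest 0.415), and that of let-7i in 3, all but without BS1 at HH20 (highest 0.226). No fitted change of the 18 miRNAs examined reversed. At 1.5-fold in place of 2-fold, 90 miRNAs changed in BS1, 88 in BS2 and 31 alike in both; other pseudocounts, levels, centring and Fisher's exact test kept the counts within 1.5 times. The difference of duck from chicken gave 0 calls in each fit except 0 to 16 with 1 sample left out, 16 being without BS2 of chicken at HH25, which leaves that stage of chicken with BS1 alone. The planned count models (negative binomial) were not run; limma voom was the only model fitted to the recovered reads. Of the miRNAs 2-fold different in both pairs, depth limited let-7d, miR-378, miR-367 and miR-10b, with under 50 reads in at least 1 library.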
